A study of Mus musculus with 15 samples.

Results

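The 46 genes described here are cell cycle and proliferation genes, listed by name for their known roles. Each was followed through all the probe sets that carry its symbol alone in the platform annotation. Of the 46 genes, 45 were measured by 104 probe sets, out of 18193 genes and 45101 probe sets in all. Ccnb1 was not analysed here. Where a gene had several, the one with the highest mean log2 signal stood for it, and the other 59 probe sets of these genes are described separately.

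The study asked whether XKA, a compound herbal medicine given for type 2 diabetes, shifts liver gene expression in a diabetic mouse back towards normal. Liver RNA of 15 male mice was hybridised to Affymetrix mouse 430 2.0 arrays, with 1 mouse on each array and 3 groups of 5 mice. The normal mice were C57BL/6J mice on chow, and the model group were KKAy mice, an obese and diabetic strain, on a high-fat diet. Both received distilled water by gavage. The XKA group were KKAy mice on the same high-fat diet that received XKA at 1.5 g/kg by gavage, once daily for 32 days from 10 weeks of age. Strain, diet and supplier differ together between the KKAy and the C57BL/6J mice, so that their parts in a difference cannot be told apart. The XKA group differs from the model group by the gavage.

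A dividing cell passes through growth, DNA replication and mitosis, and each step has its own set of genes. Cyclins switch on the cyclin-dependent kinases, the MCM proteins form the helicase that opens replication origins, and the spindle, kinetochore and cytokinesis proteins separate the copied chromosomes. Adult hepatocytes are mostly at rest and re-enter the cycle after loss or injury of liver tissue, and many of these genes are used hardly at all in a resting liver. In whole liver tissue the RNA can also come from other dividing cells, and fewer cells of a type and less RNA per cell cannot be told apart.

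Signals are given after each array was scaled to a median of 1000. The signal of one probe set was not set against that of another gene, and no test against background was made. All 7 hepatocyte markers measured had a mean above the array median, and the correlation of an array with the others of its group averaged between 0.929 and 0.941. Dim genes were noisy. The 45 genes had a median within-group SD of 0.78 on the log2 scale, which was 0.52 for the 24 with a mean above the array median and 1.11 for the 21 below it.

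Many genes that act late in the cycle carry in their promoters a CHR element, which binds the MuvB core of the DREAM complex, and CCAAT boxes, which bind NF-Y. Many early genes carry E2F sites. RefSeq promoters of mouse build GRCm38.p6, from 250 bases before to 50 bases after the annotated start, were at hand for 37 of the 45 genes, as 42 promoters of 300 bases. The CHR element was searched as TTTGAA or TTCGAA, the box as CCAAT, and the E2F core as TTCCCGC or TTGGCGC or TTCGCGC, all on both strands. The complement ATTGG and the word TTGGCGC share letters and can overlap. A CHR word was in 52.4% of the promoters of these genes and in 19.2% of all 32851 promoters of the same length. A CCAAT word was in 76.2% against 37.4%, an E2F word in 31.0% against 8.07%, and CHR and CCAAT words together in 52.4% against 7.52%. The promoters of 4 genes on which the results turn, and of the proliferation marker Mki67, show these words in capitals, 5′ to 3′ on the strand of the gene.
Ccnb2, chr9:70421505-70421804, minus strand: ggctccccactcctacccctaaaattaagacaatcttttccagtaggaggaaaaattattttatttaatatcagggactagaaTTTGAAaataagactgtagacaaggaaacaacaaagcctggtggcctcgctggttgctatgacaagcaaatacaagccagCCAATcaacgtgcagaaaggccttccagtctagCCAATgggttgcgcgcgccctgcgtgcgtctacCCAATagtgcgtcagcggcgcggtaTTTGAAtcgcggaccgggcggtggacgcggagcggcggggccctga
Cdc20, chr4:118437294-118437593, minus strand: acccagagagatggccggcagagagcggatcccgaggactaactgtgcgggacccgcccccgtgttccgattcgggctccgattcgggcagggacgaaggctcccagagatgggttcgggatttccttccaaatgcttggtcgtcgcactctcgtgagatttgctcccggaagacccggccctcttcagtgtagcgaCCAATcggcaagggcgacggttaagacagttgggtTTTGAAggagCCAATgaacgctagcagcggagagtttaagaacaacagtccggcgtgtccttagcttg
Mki67, chr7:135716330-135716629, minus strand: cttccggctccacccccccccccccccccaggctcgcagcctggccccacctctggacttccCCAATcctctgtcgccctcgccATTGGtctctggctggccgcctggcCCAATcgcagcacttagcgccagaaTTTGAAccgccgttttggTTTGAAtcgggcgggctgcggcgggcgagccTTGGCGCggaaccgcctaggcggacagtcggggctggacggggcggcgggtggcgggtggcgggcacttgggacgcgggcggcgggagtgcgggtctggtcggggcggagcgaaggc
Mcm2, chr6:88898731-88899030, minus strand: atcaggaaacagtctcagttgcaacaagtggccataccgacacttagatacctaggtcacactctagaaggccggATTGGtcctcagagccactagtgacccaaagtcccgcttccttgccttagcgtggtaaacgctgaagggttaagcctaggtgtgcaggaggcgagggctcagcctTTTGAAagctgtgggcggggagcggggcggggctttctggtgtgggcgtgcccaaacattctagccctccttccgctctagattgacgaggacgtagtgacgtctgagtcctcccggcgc
Ccne1, chr7:38107441-38107740, minus strand: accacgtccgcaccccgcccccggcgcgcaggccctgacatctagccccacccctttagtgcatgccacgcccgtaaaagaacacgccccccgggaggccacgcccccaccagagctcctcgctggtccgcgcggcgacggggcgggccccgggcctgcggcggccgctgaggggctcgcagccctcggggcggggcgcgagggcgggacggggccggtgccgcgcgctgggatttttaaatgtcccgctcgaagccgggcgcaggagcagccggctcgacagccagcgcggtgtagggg
The Ccnb2 promoter held 5 such words. Its 3 CCAAT words began at -87, -54 and -21 from the start, and its CHR words at -167 and 5. The Cdc20 promoter had its CHR word at -18 between CCAAT words at -53 and -8. The Mki67 promoter held 6 words, with CHR words at -116 and -98 and an E2F word at -67. The Mcm2 promoter held 2, a CHR word at -70 and the complement of CCAAT at -175, and the Ccne1 promoter held 0 of the words searched. A word is a match of letters and was not shown to be a binding site.

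The livers of KKAy model mice had a higher signal for 8 of the 45 cell cycle genes than those of C57BL/6J mice, and a lower signal for 0, each read from 1 probe set. The 8 genes were the cyclins Ccna2, Ccnb2 and Ccne1, the CDK inhibitor Cdkn1a, the helicase subunit Mcm2, the anaphase activator Cdc20, Birc5 of the chromosomal passenger complex, and Ect2, which starts cytokinesis. They are 17.8% of the 45, where 10.5% of all 18193 genes tested were higher at an adjusted p under 0.05, and 2.36% were lower (limma, two-sided, Benjamini-Hochberg over all genes). Cdc20 and Cdkn1a are in these counts, with probe sets chosen through groups where they were high, as described below. The log2 change was above 0 for 36 of the 45 genes, or 80% beside 62.8% of all genes. Its median was 0.59 over the 45 genes and 0.15 over all genes. Over the 24 of the 45 that were not dim it was 0.32, beside 0.18 over all genes that were not dim. At an unadjusted p under 0.05, 16 of the 45 were higher, which is 35.6% beside 19.4% of all genes, and 0 were lower beside 5.68%. Cdc20, Cdkn1a and Kif11 are among the 16, with probe sets that were the brightest in the model livers but not in the normal livers. The median of all genes depends on the scaling and was -0.04 on the deposited values and 0.04 on quantile-normalized ones, where 33 and 35 of the 45 genes were above 0. With the deposited values 4 of the 45 genes passed (Ccnb2, Ccne1, Mcm2 and Birc5), where 1118 of the 18193 genes were higher. With quantile normalization 7 passed, all but Ect2 of the 8. With the mean of all probe sets of a gene, 3 of the 45 passed (Ccnb2, Ccne1 and Birc5), where 1190 of the 18193 genes were higher. The share of the 45 was then close to that of all genes.

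**Figure D1:**
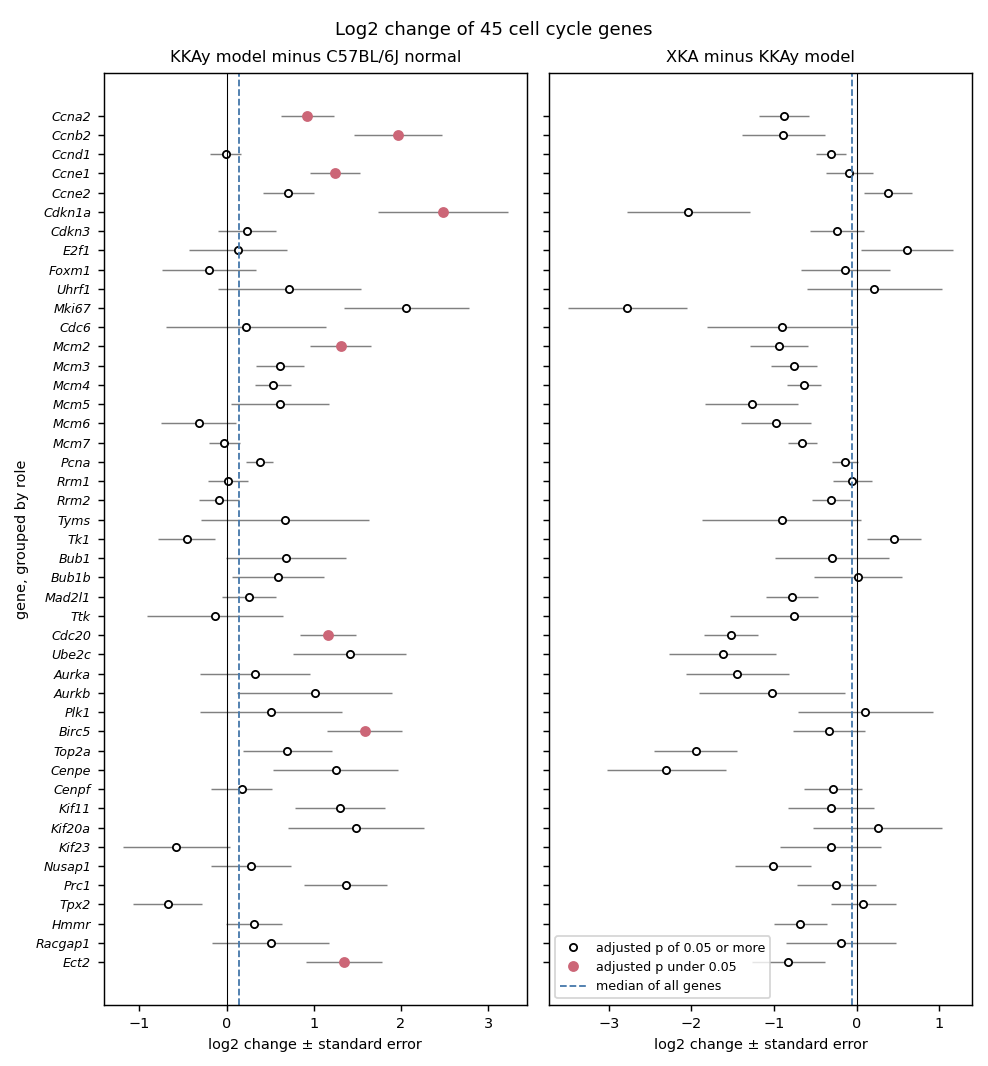
Log2 change with its standard error (x axis) for each of the 45 cell cycle genes (y axis, grouped by role), for KKAy model minus C57BL/6J normal (left) and for XKA minus KKAy model (right), from limma fits over 15 arrays. Filled points have an adjusted p under 0.05, which holds for 8 genes on the left and 0 on the right; the dashed line is the median of all genes, 0.15 and -0.06.

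Of the 7 cyclins and CDK inhibitors 4 passed, where 10.5% of all genes were higher. Ccna2 among them lay at the threshold, and Cdkn1a rests on 1 of its 2 probe sets. Counts for the other roles below stand beside the same 10.5%. Ccnb2 encodes a B-type cyclin that drives entry into mitosis. Its signal was 177, 1001, 519, 147 and 939 in the 5 normal livers, and 1960, 2036, 1030, 2263 and 1247 in the model livers. Every model liver was above every normal liver, with the third model liver only just above the second normal one. The log2 change was 1.97 ± 0.51 (SE, n = 5 in each group, adjusted p = 0.0135). In the livers of XKA mice the signal was 879, 565, 687, 1297 and 1216, which overlapped both other groups, and the change was -0.89 ± 0.51 from the model group (adjusted p = 0.671) and 1.08 ± 0.51 from the normal group (adjusted p = 0.247).

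Ccna2, the cyclin of S phase and early mitosis, had a signal of 1309, 1440, 1022, 1101 and 1270 in the normal livers and 2754, 1661, 2890, 2190 and 2297 in the model livers, again with no overlap. The log2 change was 0.93 ± 0.30, with an adjusted p of 0.0497 that lies at the threshold. In the XKA livers it was 783, 1460, 2174, 1706 and 753. The first and the fifth of these lay below every normal liver, and the third and the fourth within the model range, and the change from the model group was -0.88 ± 0.30 (adjusted p = 0.355).

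Ccne1 and Ccne2 encode the E-type cyclins, which drive the step from G1 into S phase. Ccne1 had a signal of 767, 2063, 2103, 1782 and 2003 in the normal livers, 3016, 2906, 5929, 4915 and 3426 in the model livers, and 5215, 3914, 2556, 3954 and 3142 in the XKA livers. All 10 KKAy livers were above all 5 normal livers. The log2 change was 1.24 ± 0.29 in the model group (adjusted p = 0.00694) and 1.15 ± 0.29 in the XKA group (adjusted p = 0.0171), both against the same normal livers, and XKA minus model was -0.09 ± 0.29 (adjusted p = 0.964). On the deposited values XKA minus normal did not pass (adjusted p = 0.0533). A second probe set of Ccne1 was also higher, by 0.89 ± 0.22 in the model group (adjusted p = 0.0117 over all probe sets) and by 1.04 ± 0.22 in the XKA group (adjusted p = 0.00565).

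Ccne2 had a signal of 912, 1052, 1086, 781 and 1161 in the normal livers and of 1318, 1129, 3255, 1933 and 1172 in the model livers, where the second lay within the normal range. It was 2730, 1864, 1995, 1965 and 2048 in the XKA livers. The XKA livers did not overlap the normal livers, with a log2 change of 1.09 ± 0.29 (adjusted p = 0.0252, and 0.0561 on the deposited values), while model minus normal was 0.71 ± 0.29 (adjusted p = 0.127) and XKA minus model 0.38 ± 0.29 (adjusted p = 0.762). Ccnd1, the cyclin that responds to growth factors, gave -0.01 ± 0.18 in the model group (adjusted p = 0.979) and -0.31 ± 0.18 for XKA minus model (adjusted p = 0.671). Its other probe sets gave -0.07 ± 0.21 and 0.73 ± 0.34 in the model group, and -0.55 ± 0.21 and -0.68 ± 0.34 for XKA minus model.

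Cdkn1a encodes p21, which holds cyclin-dependent kinases in check and is a target of p53. On the probe set used, it gave the largest log2 change among the 45 genes in the model group. The signal was 2918, 2924, 1648, 249 and 249 in the normal livers and 3971, 3190, 5445, 10973 and 6237 in the model livers. The fourth and the fifth normal livers were far below the other 3, and the lowest model liver was just above the highest normal one. The change was 2.48 ± 0.74 (adjusted p = 0.0322). In the XKA livers the signal was 583, 603, 661, 2654 and 6509, so that 4 lay below every model liver and the fifth within the model range. XKA minus model was -2.04 ± 0.74 and did not pass (adjusted p = 0.398). The second probe set of Cdkn1a gave 0.07 ± 0.46 for model minus normal and -1.59 ± 0.46 for XKA minus model, so the rise in the model group rests on 1 of its 2 probe sets. The second was the brighter of them in the normal livers, with a mean of 2655 beside 1598. The one used was the brighter in the model livers (5963 beside 2805) and in the XKA livers (2202 beside 1104). It was thus chosen through the KKAy groups, and its call, lack of overlap and rank are given as a description. Cdkn3, a phosphatase that acts on cyclin-dependent kinases, gave 0.24 ± 0.33 and -0.24 ± 0.33.

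**Figure D2:**
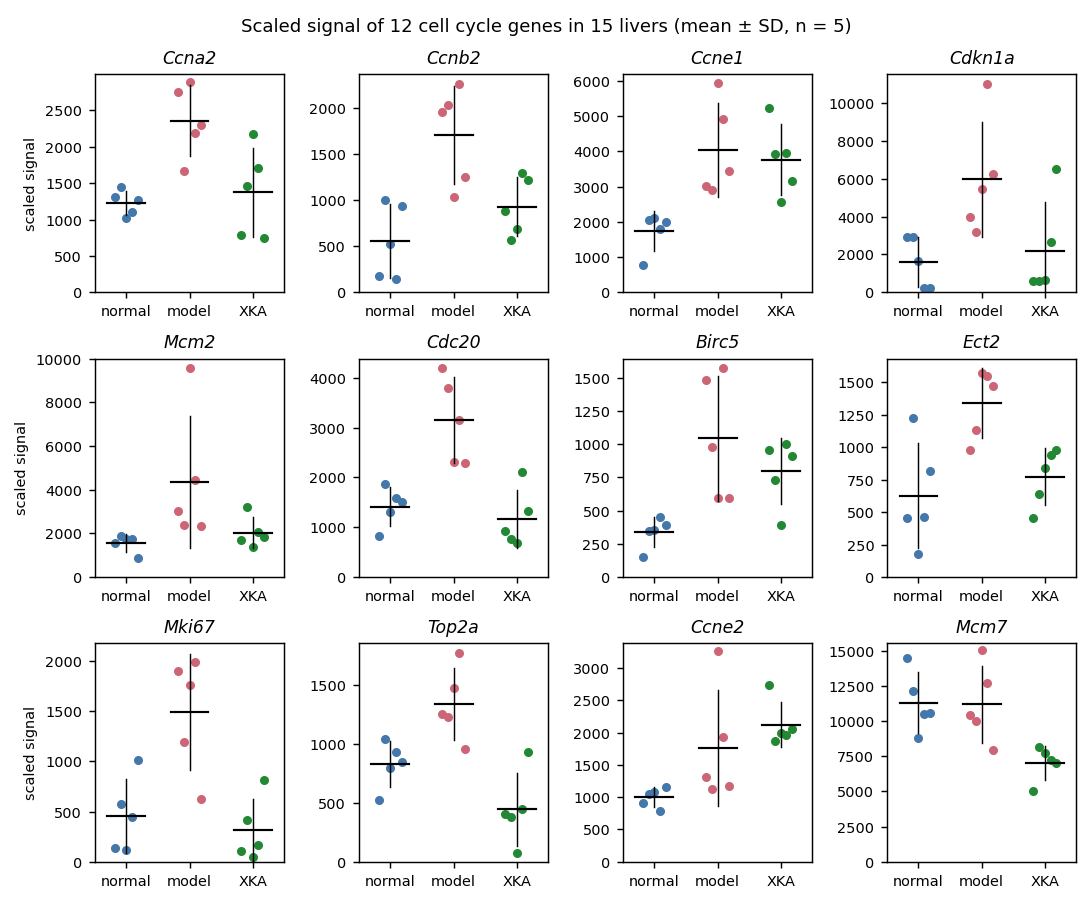
Scaled signal (y axis, each array scaled to a median of 1000) of 12 cell cycle genes in the livers of C57BL/6J normal, KKAy model and XKA mice, where each point is 1 mouse, the bar is the mean and the line is the SD of 5. Ccna2, Ccnb2, Ccne1, Cdkn1a, Mcm2, Cdc20 and Birc5 do not overlap between model and normal livers, Cdc20 and Top2a do not overlap between XKA and model livers, and Ccne1 stays above the normal livers in every XKA liver.

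Of the 8 replication licensing and clamp genes, 1 passed in the model group. From the model to the XKA group all 8 had a log2 change below 0, beside 58.4% of all genes. The median was -0.83, and none passed the adjusted p. Within groups these genes had a median correlation of 0.44, so their changes are not independent readings. Mcm2, a subunit of the replicative helicase, had a signal of 1584, 1882, 1765, 1732 and 856 in the normal livers and 3049, 2400, 9570, 4453 and 2342 in the model livers. The groups did not overlap, and the third model liver was far above the next. The change was 1.31 ± 0.35 (adjusted p = 0.0170). In the XKA livers it was 1719, 3221, 1363, 2053 and 1837, with only the second in the model range, and XKA minus model was -0.94 ± 0.35 (adjusted p = 0.421).

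Mcm3 and Mcm4 of the same helicase gave 0.62 ± 0.28 and 0.53 ± 0.21 in the model group (adjusted p = 0.169 and 0.104), and Mcm3 was the 1 gene besides 7 of the 8 above whose model livers all lay above the normal livers. That makes 8 of 45 genes with no overlap, 17.8% beside 8.17% of all genes, and 0 of 45 with all model livers below, beside 2.34%. Cdc20 and Cdkn1a are among the 8, with probe sets chosen through groups where they were high. Mcm4 had a signal of 3951, 3539, 6444, 6594 and 3665 in the model livers and of 2908, 3317, 3428, 2477 and 2961 in the XKA livers. The groups did not overlap, by a narrow margin, and XKA minus model was -0.63 ± 0.21 (adjusted p = 0.312). Mcm5 gave 0.61 ± 0.56 in the model group and -1.27 ± 0.56 from the model to the XKA group (adjusted p = 0.558 and 0.535).

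Mcm7 and Mcm6 had log2 changes below 0 in the model group, and their lowest group mean was that of the XKA livers. Mcm7 had a signal of 14531, 12163, 8787, 10523 and 10601 in the normal livers, 10412, 9987, 15034, 12728 and 7918 in the model livers, and 5059, 8132, 7719, 7211 and 7015 in the XKA livers. The XKA livers all lay below the normal livers, and only the second reached the lowest model liver. The log2 change was -0.69 ± 0.18 from normal to XKA (adjusted p = 0.0207), -0.66 ± 0.18 from model to XKA (adjusted p = 0.164) and -0.03 ± 0.18 from normal to model (adjusted p = 0.951). XKA minus model for Mcm7 passed after quantile normalization (-0.60, adjusted p = 0.0358). XKA minus normal did not pass without the intensity trend (adjusted p = 0.0628) or when its 4 probe sets were averaged (-0.31, adjusted p = 0.256). The other 3 probe sets gave -0.28, -0.10 and -0.18 from normal to XKA and -0.50, -0.17 and -0.11 from model to XKA. Mcm6 gave -1.29 ± 0.43 from normal to XKA with no overlap (adjusted p = 0.0769), -0.98 ± 0.43 from model to XKA and -0.32 ± 0.43 from normal to model.

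Pcna, the sliding clamp of the DNA polymerases, changed by 0.38 ± 0.16 in the model group and by -0.14 ± 0.16 from the model to the XKA group (adjusted p = 0.128 and 0.864). Cdc6, the helicase loader, ranged from 23 to 492 over the 15 livers, and gave 0.22 ± 0.92 and -0.90 ± 0.92. The genes of nucleotide supply gave 0 calls in any comparison. Rrm1 and Rrm2, the subunits of ribonucleotide reductase, gave 0.02 ± 0.23 and -0.08 ± 0.23 in the model group. Tk1, thymidine kinase, gave -0.46 ± 0.33, and Tyms, thymidylate synthase, 0.67 ± 0.96.

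Among the checkpoint and anaphase genes, Cdc20, which activates the anaphase-promoting complex, was the 1 of 6 that passed in the model group. Its signal was 817, 1861, 1304, 1594 and 1503 in the normal livers, 4202, 3800, 2305, 3162 and 2294 in the model livers, and 928, 767, 687, 2117 and 1328 in the XKA livers. The model livers stood above all livers of both other groups, which overlapped each other. The change was 1.16 ± 0.32 in the model group (adjusted p = 0.0218). XKA minus model was -1.52 ± 0.32, the lowest adjusted p of the 45 genes in that comparison, 0.0641. This change passed with quantile normalization (adjusted p = 0.0423), with dim genes left out (0.0311) and with array weights (0.0443). The other 2 probe sets of Cdc20 gave 0.18 ± 0.26 and -1.05 ± 0.52 for model minus normal, and -0.09 ± 0.26 and 0.35 ± 0.52 for XKA minus model, so both changes of Cdc20 rest on 1 of 3 probe sets, one whose name marks probes that can bind other transcripts. That probe set was also chosen through the model livers. Its mean was 1416, 3152 and 1165 in the normal, model and XKA livers, while that of another was 1509, 1706 and 1613, and Cdc20 was the 1 gene of the 32 with several probe sets whose probe set was the brightest in the model livers alone. A probe set chosen in this way had to lie high in the model group, so the call, the lack of overlap and the change to the XKA group are given for it as a description.

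Ube2c, the ubiquitin-conjugating enzyme of the anaphase-promoting complex, moved by 1.41 ± 0.65 in the model group (adjusted p = 0.177) and by -1.62 ± 0.65 from the model to the XKA group (adjusted p = 0.464). Mad2l1, a spindle checkpoint protein, gave 0.26 ± 0.31 and -0.78 ± 0.31. The checkpoint kinases Bub1, Bub1b and Ttk ranged between -0.13 and 0.68 in the model group, with standard errors of 0.69, 0.53 and 0.78.

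Birc5, or survivin, was the 1 of 4 genes of the mitotic kinases and the passenger complex that passed. It had a signal of 153, 350, 355, 452 and 388 in the normal livers, 1484, 975, 591, 1572 and 595 in the model livers, and 957, 729, 392, 1000 and 911 in the XKA livers. The model livers did not overlap the normal livers, while 4 of the 5 XKA livers also lay above them. The change was 1.58 ± 0.44 in the model group (adjusted p = 0.0202), 1.24 ± 0.44 from normal to XKA (adjusted p = 0.0971) and -0.34 ± 0.44 from model to XKA (adjusted p = 0.886). The mitotic kinases Aurka, Aurkb and Plk1 gave 0.32 ± 0.63, 1.01 ± 0.88 and 0.51 ± 0.81 in the model group. For Aurka the fifth model liver had a signal of 187, while the other 4 model livers had 1042 to 1650 and the normal livers 641 to 832.

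Of the 12 genes of chromosome structure, spindle and cytokinesis, Ect2, the exchange factor that activates RhoA at the cleavage furrow, was the 1 that passed in the model group. Its signal was 457, 1228, 177, 464 and 815 in the normal livers and 976, 1135, 1574, 1550 and 1471 in the model livers. The second normal liver lay above 2 of the model livers. The change was 1.34 ± 0.44, with an adjusted p of 0.0493 at the threshold, and XKA minus model was -0.83 ± 0.44 (adjusted p = 0.642). The spindle motor Kif11 and the midzone protein Prc1 gave 1.30 ± 0.52 and 1.37 ± 0.48 in the model group (adjusted p = 0.115 and 0.0671). Other probe sets of Kif11 gave -0.41 ± 0.71 and 0.41 ± 0.82, and the first of these was brighter in the normal livers (mean 670 beside 505). Another probe set of Prc1 gave 1.73 ± 0.81. Kif23 and Tpx2 gave changes below 0, at -0.58 ± 0.61 and -0.68 ± 0.39. Other probe sets of Kif23 gave 0.53 ± 0.83 and -0.34 ± 0.85, and those of Tpx2 -0.53 ± 0.49, 0.77 ± 0.61 and 0.49 ± 0.99.

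Top2a, the topoisomerase that untangles replicated DNA, had a signal of 524, 1040, 800, 935 and 849 in the normal livers, 1257, 1232, 1478, 1768 and 961 in the model livers, and 401, 378, 72, 445 and 932 in the XKA livers. The XKA livers all lay below the model livers, and the highest XKA liver was close to the lowest model liver. XKA minus model was -1.95 ± 0.51 (adjusted p = 0.143) and model minus normal 0.70 ± 0.51 (adjusted p = 0.435). The other 2 probe sets of Top2a gave 0.10 ± 0.53 and 0.40 ± 0.61 for XKA minus model and -0.26 ± 0.53 and 0.02 ± 0.61 for model minus normal, so the lower signal in the XKA livers rests on 1 of 3 probe sets. The one used was the brightest in the normal and model livers, with means of 829 and 1339. In the XKA livers its mean was 446, where another probe set had 687. It was thus chosen through groups where it was high, and its change to the XKA livers and lack of overlap are given as a description. The kinetochore motor Cenpe gave 1.25 ± 0.72 and -2.30 ± 0.72, on signals of at most 589 in any liver.

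Mki67, which encodes the Ki-67 antigen used to count cycling cells, was listed with the transcription and chromatin regulators, of which 0 of 4 passed. It had a signal of 132, 572, 115, 441 and 1008 in the normal livers, 1901, 1191, 1755, 1993 and 621 in the model livers, and 109, 412, 52, 171 and 816 in the XKA livers. In 4 of the 5 model livers it was above all 10 other livers, and the fifth model liver lay inside the normal range. The change was 2.06 ± 0.72 in the model group (adjusted p = 0.0662) and -2.78 ± 0.72 from the model to the XKA group (adjusted p = 0.142), the lowest log2 change of the 45 genes in that comparison. Model minus normal of Mki67 passed with an offset of 100 added to the signal (adjusted p = 0.0363) and when only these 2 groups were fitted (0.0300). Foxm1, a transcription factor of mitotic genes, gave -0.20 ± 0.54, E2f1 0.13 ± 0.56 and Uhrf1, which keeps DNA methylation through replication, 0.72 ± 0.82.

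From the model to the XKA group, 0 of the 45 cell cycle genes passed the adjusted p in either direction, where 0.066% of all genes were higher and 0.11% lower. At an unadjusted p under 0.05, 17 of the 45 were lower and 0 higher. That is 37.8% lower beside 5.82% of all genes, and 0 higher beside 2.76%. Cdc20, Top2a and Hmmr are among the 17, with probe sets that were the brightest in the model livers but not in the XKA livers. The log2 change was below 0 for 37 of the 45 genes, or 82.2% beside 58.4% of all genes, with a median of -0.63 beside -0.06. That median was -0.31 without the dim genes and -0.34 with an offset of 100 added to the signal, where the median of all genes was -0.06 each time. In 3 genes, Top2a, Cdc20 and Mcm4, every XKA liver lay below every model liver, 6.67% beside 1.01% of all genes. For Cdc20 and Top2a this was read from 1 of 3 probe sets. That of Cdc20 was chosen through the model livers, and that of Top2a through the normal and model livers. For both, the lack of overlap is given as a description. The standard error of the difference had a median of 0.48 over the 45 genes and 0.65 over the dim ones. Model minus normal and XKA minus model share the 5 model livers and are not independent of each other.

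Between XKA and normal livers, Ccne1 and Ccne2 were higher, 4.44% of the 45 beside 5.49% of all genes, and Mcm7 was lower, 2.22% beside 1.88%. The groups did not overlap for Ccne1 and Ccne2, higher in the XKA livers (4.44% beside 5.01%), and for Mcm6 and Mcm7, lower (4.44% beside 1.94%). At an unadjusted p under 0.05, 6 were higher (13.3% beside 13.9%) and 3 lower (6.67% beside 5.4%). Top2a is among the 3, with a probe set that was not the brightest in the XKA livers. Of the 45 log2 changes, 18 were above 0 (40% beside 59.2%) and 27 below (60% beside 40.8%), and their median was -0.10 beside 0.10 for all genes.

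**Figure D3:**
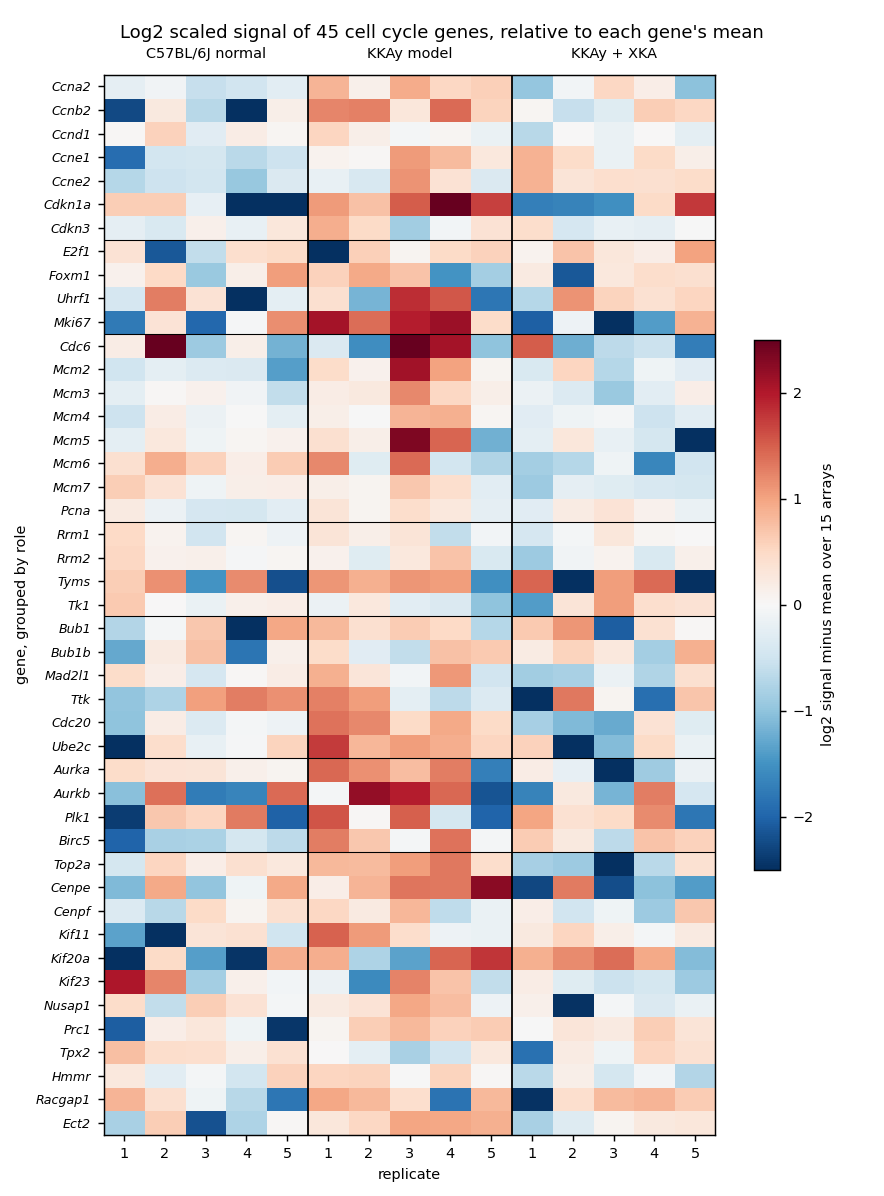
Log2 scaled signal of the 45 cell cycle genes (y axis, grouped by role and split by lines) on each of the 15 arrays (x axis, replicates 1 to 5 of each group), as the deviation from the mean of the gene over all arrays. Model replicates 1 to 4 are mostly red, model replicate 5 holds the lowest value in the model group for 22 of the 45 genes, and the dim genes vary most within groups.

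Within a group, most of the genes did not move together from liver to liver. Over the 990 pairs of the 45 genes the median correlation of the deviations from the group means over 15 arrays was 0.06, and it was 0.44 over the 28 pairs of replication licensing and clamp genes. The highest of the 990 were 0.88 for Mcm7 with Pcna, 0.78 for Cdc6 with Kif23 and 0.78 for Mcm2 with Mcm3, and the lowest were -0.83 for Cenpe with Nusap1, -0.79 for Mcm2 with Cdkn3 and -0.74 for Mcm7 with Cdkn3. These points share arrays and their scaling, and they are a description.

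The model livers were not alike. The median deviation of the 45 genes from their means was 0.53, 0.30, 0.81, 0.71 and -0.07 in model replicates 1 to 5, between -0.24 and 0.23 in the normal livers and between -0.29 and 0.05 in the XKA livers. Model replicate 5 thus lay inside the range of both other groups, and the other 4 above it. Over all genes the same model arrays had median deviations of 0.12, 0.11, 0.17, 0.20 and -0.08. These were between -0.17 and 0.06 on the normal arrays and between -0.12 and 0.16 on the XKA arrays. The deposited medians of the model arrays, by which they were scaled, were 127, 139, 135, 140 and 162. The low place of model replicate 5 is thus also seen over all genes. Without model replicate 5 the median log2 change of the 45 genes was 0.81 for model minus normal and -0.72 for XKA minus model.

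**Figure D4:**
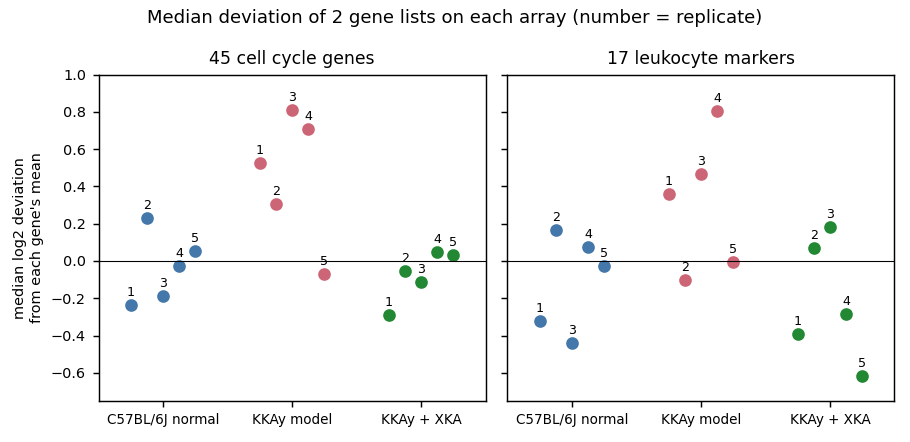
Median deviation of the log2 signal from the mean of each gene (y axis) on each of the 15 arrays, for the 45 cell cycle genes (left) and for 17 leukocyte markers (right), with each point 1 mouse and its replicate number. Model replicates 1 to 4 lie above all other livers for the cell cycle genes, and replicates 1, 3 and 4 for the leukocyte markers.

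Of 17 leukocyte markers measured, 2 passed in the model group, S100a8 with 2.16 and Lyz2 with 0.80, which is 11.8% beside 10.5% of all genes. Of the 17, 14 had a change above 0, or 82.4% beside 62.8%, with a median of 0.44. From the model to the XKA group 0 passed, 15 were below 0, or 88.2% beside 58.4%, and the median was -0.47. Their summed signal was 128695 to 221458 in the normal livers, 161895 to 408366 in the model livers and 123444 to 223377 in the XKA livers, and none was at 0. On the model arrays the median deviation of the leukocyte markers was between -0.10 and 0.80. The part of leukocytes in the differences of the cell cycle genes was not tested. Endothelial, stellate cell and erythroid markers had medians of 0.02, -0.03 and 0.07 in the model group, with 2 of 8 (25%), 2 of 9 (22.2%) and 1 of 6 (16.7%) higher and none lower, and of the 5 cholangiocyte markers 0 passed. The summed signals in normal, model and XKA livers were 45693 to 62827, 66593 to 84495 and 48969 to 85026 for endothelial markers, and 12754 to 22710, 30180 to 48374 and 29134 to 40048 for erythroid markers. The erythroid sum was carried by Alas2, the heme synthesis enzyme of red cells, at 6305 to 14029, 23369 to 40429 and 20982 to 29744, while 3 of the 6 markers had a log2 change below 0 in the model group. Their parts were not tested either.

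Which livers carried a call could be seen by leaving out each of the 15 in turn, where 4 to 8 of the 45 genes passed for model minus normal. There were 4 without model replicate 1, 3 or 4 and 5 without normal replicate 4. The number of all 18193 genes that were higher also moved, from 1262 without model replicate 4 to 2373 without model replicate 5. Ccnb2 and Ccne1 passed every time, with adjusted p of at most 0.0412 and 0.0258. Cdc20 did not pass without normal replicate 1 (adjusted p = 0.0535), model replicate 1 (0.0616) or model replicate 2 (0.0569), Mcm2 not without normal replicate 5 (0.0505) or model replicate 3 (0.0506), and Birc5 not without model replicate 1 (0.0568) or 4 (0.0659). Cdkn1a did not pass without normal replicate 4 (0.0992) or 5 (0.0945) or model replicate 3 (0.0615), 4 (0.0918) or 5 (0.0527). Ccna2 passed only without model replicate 2 or XKA replicate 1, 3 or 5, and Ect2 only without normal replicate 2 or 5 or XKA replicate 1, with adjusted p of up to 0.122 and 0.139 otherwise. Mki67 passed without normal replicate 5 (0.0365), model replicate 5 (0.0432), XKA replicate 3 (0.0449) or XKA replicate 5 (0.0453). For XKA minus model, Cdc20 passed without XKA replicate 4 (0.0299). For XKA minus normal, Ccne2 did not pass without normal replicate 4 (0.0691) or XKA replicate 1 (0.0645), and Mcm7 not without normal replicate 1 (0.0549) or 2 (0.0503) or XKA replicate 1 (0.0529).

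Of the 45 genes, 13 had 1 probe set and 32 had more, up to 5. The probe set used had a name ending in x_at, which marks probes that can bind other transcripts, for 7 genes (Ccne1, Cdc20, Mcm4, Mcm5, Mcm6, Rrm2 and Aurkb). For 4 more (Mcm2, Mcm3, Mcm7 and Prc1) the name ended in s_at, which marks probes shared by several transcripts. Of the 59 other probe sets 13 were above the array median, and their median correlation with the one used, within groups, was 0.12. All probe sets of a gene had 1 sign in 13 of the 32 genes for model minus normal and in 16 of 32 for XKA minus model. When every probe set was tested on its own, 7 of the 104 were higher in the model group and 1 was lower. The lower one belonged to Foxm1, at -2.45 ± 0.58 (adjusted p = 0.00924), with a mean signal of 998 ± 547 (SD, n = 5) in the normal, 164 ± 49.8 in the model and 524 ± 371 in the XKA livers, while the other 3 probe sets of Foxm1 gave -0.20, 0.36 and 0.40. A second probe set of Mcm6 gave -2.04 ± 0.86 for XKA minus model, in the same direction as the one used, and -3.13 ± 0.86 for XKA minus normal, where it passed (adjusted p = 0.0351) and the one used did not. Of the 8 genes higher in the model group, Ccnb2, Birc5 and Ect2 have 1 probe set each. With the mean of all probe sets, Ccne1 was the 1 of the other 5 that passed (adjusted p = 0.00281), while Mcm2 (0.0807), Ccna2 (0.106), Cdkn1a (0.197) and Cdc20 (0.883) did not, and Ect2 moved to 0.0507.

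The 20 genes with both a CHR and a CCAAT word in a promoter and the 17 without both were described apart. In the model group 4 of the 20 passed (Ccnb2, Cdc20, Ect2 and Mcm2), with a median log2 change of 0.64, and 3 of the 17 (Birc5, Ccne1 and Cdkn1a), with a median of 0.38. Of all genes 10.5% were higher. Cdc20 and Cdkn1a are in these counts, with probe sets chosen through groups where they were high. With the mean of all probe sets neither passed (adjusted p = 0.883 and 0.197). From the model to the XKA group the log2 change was below 0 for 18 of the 20 and 14 of the 17, beside 58.4% of all genes, with medians of -0.67 and -0.76. The difference between the sets was not tested.

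Genes of the same pathways outside the 45 were read from 4 further lists. Of 44 other mitosis genes, 5 were higher (11.4% beside 10.5% of all genes) and 2 lower (4.55% beside 2.36%) in the model group, with a median log2 change of 0.31. Stmn1, or stathmin, which destabilises microtubules, had a signal of 8971, 8721, 8884, 7282 and 7954 in the normal livers, 21544, 16729, 25505, 19274 and 17039 in the model livers, and 10750, 11106, 10090, 11295 and 10571 in the XKA livers. None of the 3 groups overlapped. The change was 1.25 ± 0.12 in the model group (adjusted p = 9.37e-07), and -0.88 ± 0.12 from the model to the XKA group (adjusted p = 0.00468), the 1 gene of these lists that passed there. Cdk1, the kinase of mitotic entry, and Spc25 of the kinetochore were higher in the model group by 2.29 ± 0.52 and 1.55 ± 0.24, and Pttg1, or securin, which guards sister chromatids, was lower by -2.35 ± 0.21 (adjusted p = 2.15e-07). From the model to the XKA group 33 of these 44 genes were below 0 (75% beside 58.4% of all genes), with a median of -0.42.

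Of 43 other replication genes, 5 were higher (11.6% beside 10.5% of all genes) and 1 lower (2.33% beside 2.36%) in the model group, with a median of 0.24. Dbf4, Mcm10 and Hells were higher by 1.16, 1.01 and 0.99, and Gmnn, or geminin, which blocks a repeat of licensing, was lower by -0.98. From the model to the XKA group 0 of the 43 passed, with a median of -0.21. Of 34 genes of G1 control, 6 were higher (17.6%) and 2 lower (5.88%) in the model group, beside 10.5% and 2.36% of all genes, among them E2f2 with 1.98 and the CDK inhibitor Cdkn2c with -1.32, and 0 passed from the model to the XKA group. Of 20 p53 target genes beside Cdkn1a, 9 were higher in the model group (45% beside 10.5%) and 1 lower (5% beside 2.36%), with a median of 0.69. Eda2r, Aen, Gadd45a and Zmat3 were higher by 1.60, 1.34, 1.31 and 1.13. From the model to the XKA group 0 of the 20 passed, 18 were below 0 (90% beside 58.4% of all genes) and the median was -0.32.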

How the data were processed

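Liver RNA of 15 mice was hybridised to Affymetrix mouse 430 2.0 arrays. The deposited values are probe set signal intensities on a linear scale, and the sources used here do not say how the authors summarised the probes. Per the methods, arrays were scaled to a median of 1000, which was done here on the deposited intensities before taking log2. Of 45101 probe sets, 34958 had 1 gene symbol in the platform annotation, 932 several and 9211 none; 13 control probe sets with a symbol were left out, and 34741 matched RefSeq. A gene with several probe sets was taken from the one of highest mean log2 signal, which left 18193 genes. Groups were compared with limma (3.58.1, R 4.3.3, data.table version 1.17.8; lmFit, contrasts, eBayes with trend) over all 15 arrays at once. Tests were two-sided, with p adjusted after Benjamini-Hochberg over 18193 genes and calls at an adjusted p under 0.05. P-values measure the spread between mice, and 5 arrays in each group limit the precision. The scripts were tested on simulated data.

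The 46 genes and the other gene lists were chosen with earlier results of these data known, so no test over a list was made. All 45 could be named; described first were genes that passed in a comparison, those with the highest and lowest mean signal, those whose probe sets disagreed, and up to 4 genes of each other list with the largest change. Alternatives were the deposited values, quantile normalization, the mean of the probe sets, every probe set alone, no dim genes (mean under 1000), an offset of 100, no trend, 2 groups only, array weights, a block for the replicate number, the methods' Dunnett comparison, exact permutation and leaving out each array. Motifs were searched with Python 3.11.15 and pandas 2.3.3, and plots were drawn with matplotlib 3.10.9.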

Additional observations from a re-analysis of the deposited data

Results flagged for a closer look

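In each of the 135 groups of 5 livers (45 genes in 3 groups), the gap in log2 signal from the highest or lowest liver to the next was divided by the range of the group, and 18 livers stood apart by a share of the range above 0.71. Chance alone gives about 1 in 20 groups.

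Model replicate 5 stood apart on the low side for Tyms (0.917, signal 79.1 beside 422 for the next), Aurka (0.789, 187 beside 1042) and Bub1 (0.735, 174 beside 381). Model replicate 1 was low for E2f1 (0.829) and model replicate 4 for Racgap1 (0.809). Normal replicate 1 was low for Ccne1 (0.836, 767 beside 1782), Birc5 (0.765, 153 beside 350) and Ube2c (0.774), and high for Rrm2 (0.717). Normal replicate 5 was low for Mcm2 (0.781, 856 beside 1584). Among the XKA livers, replicate 1 was low for Racgap1 (0.871) and Tpx2 (0.734) and high for Ccne2 (0.754, 2730 beside 2048). Replicate 2 was low for Foxm1 (0.918, 293 beside 1478) and Nusap1 (0.816), and replicate 5 for Mcm5 (0.753), Plk1 (0.732) and Kif20a (0.798). Of these genes Ccne1, Birc5 and Mcm2 were higher in the model group, and the low normal livers widen that difference. Without normal replicate 1 the log2 changes of Ccne1 and Birc5 were 0.97 and 1.31.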

How the results depend on the processing

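No alternative turned the direction of a called result. For model minus normal, the 8 genes higher became 4 with the deposited values, 3 with the mean of the probe sets, 5 without the trend, and 13 and 2 with the Dunnett comparison before and after adjustment; every probe set alone gave 1 lower. The median of 0.59 was 0.32 without dim genes and 0.40 to 0.81 when 1 array was left out. Over all genes, 1906 higher became 1118 (deposited values), 1190 (mean of the probe sets) and 1130 (Dunnett, adjusted), and 1262 to 2373 with 1 array left out; 430 lower became 1017 (deposited), 1092 (quantile), 909 (every probe set), 738 and 229 (Dunnett, before and after adjustment), and 340 to 485. Genes higher ranged from 4 to 8 with 1 array left out.

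For XKA minus model, 0 genes lower became 2 with quantile normalization, 1 without dim genes, 1 with array weights and 9 with Dunnett unadjusted, and 0 to 1 with 1 array left out. The median of -0.63 was -0.31 without dim genes, -0.34 with the offset and -0.33 over every probe set. Over all genes, 12 higher became 23 (deposited), 46 (quantile), 3 (mean of the probe sets), 1 (no trend), 7 (2 groups), and 286 and 0 (Dunnett), and 4 to 23 with 1 array left out. The 20 lower became 40, 67, 3, 3 and 12 in the same order, 33 without dim genes, 39 with weights, 658 and 0 (Dunnett), and 5 to 38.

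For XKA minus normal, 2 genes higher became 0 with the deposited values and 1 to 2 with 1 array left out; 1 lower became 2 (deposited, 2 groups, weights, every probe set) and 0 (mean of the probe sets, no trend), and 0 to 1. Over all genes, 999 higher became 571 (mean of the probe sets) and 665 (no trend); 342 lower became 768 (deposited), 793 (quantile), 216 (no trend) and 587 (every probe set).

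The within-group deviations of arrays with the same number had r from -0.12 to 0.18. The labels do not say whether the numbers stand for a pairing or a batch, and a low r cannot decide it. With the replicate block, 5 of the 45 genes were higher in the model group (Ccnb2, Ccne1, Cdc20, Mcm2 and Birc5), and 13 of all genes were lower in XKA minus model. An alternative chosen after seeing the data, without model replicate 3 and XKA replicate 1, gave 4 genes higher. The cause of these differences was not tested. Dim signals limit precision: the standard error of XKA minus model had a median of 0.65 for dim and 0.33 for bright genes of the 45.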
